A study of Mus musculus with 36 samples.

Results

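The genes described here are 10 enzymes of serine synthesis and folate-dependent one-carbon metabolism. They were chosen by name, as the rows of the count table called Phgdh, Psat1, Psph, Shmt1, Mthfd1, Shmt2, Mthfd2, Mthfd1l, Mthfd2l and Aldh1l2, out of 36856 gene symbols. The first 5 of these enzymes work in the cytosol and the other 5 in mitochondria, and the mitochondrial enzymes were set against the cytosolic ones. All 10 passed the filter on low counts, which left 16065 genes for testing. The libraries were 36 bulk RNA-seq libraries of mouse embryonic fibroblasts, which are fibroblasts grown from mouse embryos. The cells were wild type (WT) or PERK -/-, which lack the endoplasmic reticulum (ER) stress kinase encoded by Eif2ak3. Cells of both genotypes received DMSO (the solvent), thapsigargin (an inhibitor of the ER calcium pump), BtdCPU (an activator of the eIF2 alpha kinase HRI), halofuginone (an inhibitor of prolyl-tRNA synthetase, which activates the eIF2 alpha kinase GCN2), BtdCPU + thapsigargin or halofuginone + thapsigargin, 3 replicates for each of the 12 combinations. The labels state no dose, time or batch. They name no second line for either genotype, so genotype and line cannot be told apart. Nothing in the labels says that replicates were separate cultures, so p-values measure the spread between these libraries, which may be technical.

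Cells make serine from a glycolytic intermediate in the cytosol through PHGDH, PSAT1 and PSPH in turn. Serine hydroxymethyltransferase then moves a carbon of serine onto tetrahydrofolate and leaves glycine. In mitochondria that carbon is oxidised to formate, which leaves for the cytosol and is taken up there for the synthesis of purines, thymidylate and methionine. Activating transcription factor ATF4, which is translated more when eIF2 alpha is phosphorylated, is known to raise several of these genes, and this response to stress through eIF2 alpha is called the integrated stress response (ISR).

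Library totals ran from 32454257 to 37178107 counts. Levels are given as CPM, the counts of a gene scaled to a fixed library total after TMM normalization, with the SD over 3 libraries. Eif2ak3, the gene of PERK, stood at 30.3, 32.4 and 30.7 CPM in the WT DMSO libraries and at 9.37, 9.67 and 10.8 CPM in the PERK -/- DMSO libraries. In each treatment its PERK -/- libraries lay below its WT libraries, and its transcript was still counted there. The 8 fibroblast markers together held 13281 to 38661 CPM in every library. Marker sums were at most 23.5 CPM for epithelial cells, 3.81 CPM for leukocytes, 5.33 CPM for endothelial cells and 0.621 CPM for muscle, while 4 neural markers summed to 26.6 to 236 CPM, with Tubb3 at up to 227 CPM. Within their groups, WT BtdCPU replicate 2 and WT halofuginone replicate 3 lay farthest from the other libraries over all genes. In bulk libraries a lower level can come from fewer cells with the transcript or from less of it per cell, and these cannot be told apart.

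The promoters of the members are shown first because ATF4 binds a composite CCAAT-enhancer and ATF element, often written TGATGNAA, and because the members' responses below differ. RefSeq windows of 300 bases on GRCm38.p6, from 250 before the transcript start to 50 after it, were matched by symbol for 9 of the 10 members, and Aldh1l2 was not analysed in this way. Neither TGATGNAA (TTNCATCA on the other strand) nor its stricter form TGATGCAA (TTGCATCA) occurred in any window of a member. Of 32851 promoters, 3.97% held the first and 0.895% the second. The same search found TGATGNAA in 3 of the 5 ISR readouts examined, Asns, Trib3 and Chac1, and TGATGCAA in Chac1. An empty window says only that these letters are not in these 300 bases. For comparison, the ISR readouts Asns (asparagine synthetase) and Chac1 (a glutathione-degrading enzyme) are printed from 5′ to 3′ on the strand of the gene, with the match in capitals. Asns is at chr6:7693210-7693269 on the minus strand, and Chac1 at chr2:119351032-119351091 on the plus strand, of GRCm38.p6.
Asns: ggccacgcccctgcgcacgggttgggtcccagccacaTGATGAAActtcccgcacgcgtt
Chac1: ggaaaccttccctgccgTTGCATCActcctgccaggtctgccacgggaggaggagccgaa

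A search for CCAAT, the element bound by NF-Y, which reads ATTGG when it lies on the opposite strand, was chosen after the data had been seen. It was found in the windows of 6 of the 9 members, against 37.4% of all promoters. Phgdh held 2 matches, Psat1 3, Psph 2, Mthfd2 3, Shmt1 1 and Mthfd1 1, while Shmt2, Mthfd1l and Mthfd2l held none. Psat1 has a second RefSeq window (chr19:15924573-15924872, minus strand), which held 0 matches. A match is a description of the sequence and not evidence that a protein binds there. The 100 bases before the RefSeq start are printed for the 3 serine synthesis genes and for both mitochondrial and cytosolic partners of the hydroxymethyltransferase and dehydrogenase steps, 5′ to 3′ on the strand of the gene, with CCAAT or ATTGG in capitals. On GRCm38.p6 they lie at chr3:98339970-98340069 (minus strand) for Phgdh, chr19:15925060-15925159 (minus) for Psat1, chr5:129787254-129787353 (minus) for Psph, chr10:127522445-127522544 (minus) for Shmt2, chr11:60811266-60811365 (minus) for Shmt1, chr6:83317605-83317704 (minus) for Mthfd2 and chr12:76255132-76255231 (plus) for Mthfd1. For Phgdh, Psat1, Psph, Shmt1 and Mthfd2 this RefSeq start lies inside the longer extent that GENCODE gives the gene.
Phgdh: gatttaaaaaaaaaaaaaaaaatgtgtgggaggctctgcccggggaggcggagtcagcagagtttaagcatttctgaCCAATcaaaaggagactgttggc
Psat1: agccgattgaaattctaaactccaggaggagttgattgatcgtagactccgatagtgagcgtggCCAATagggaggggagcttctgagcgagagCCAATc
Psph: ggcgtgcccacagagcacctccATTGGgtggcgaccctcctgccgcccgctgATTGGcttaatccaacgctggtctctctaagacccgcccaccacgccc
Shmt2: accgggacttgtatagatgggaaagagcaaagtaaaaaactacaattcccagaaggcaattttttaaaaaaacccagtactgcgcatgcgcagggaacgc
Shmt1: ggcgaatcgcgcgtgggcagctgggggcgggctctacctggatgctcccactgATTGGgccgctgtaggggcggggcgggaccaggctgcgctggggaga
Mthfd2: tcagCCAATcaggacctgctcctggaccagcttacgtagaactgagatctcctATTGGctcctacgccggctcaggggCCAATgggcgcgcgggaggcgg
Mthfd1: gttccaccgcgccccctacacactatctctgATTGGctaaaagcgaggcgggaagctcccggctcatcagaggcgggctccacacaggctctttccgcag

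In WT cells with DMSO, transcript of the mitochondrial hydroxymethyltransferase Shmt2 was the most abundant of the 10 per length. To compare genes, CPM was divided by the exon length of each gene in kilobases (GENCODE M21, GRCm38). Shmt2 (chr10:127517123-127522444, minus strand) stood at 198 ± 10.7 CPM per kilobase (SD, n = 3) in WT DMSO libraries, and its cytosolic counterpart Shmt1 (chr11:60788104-60811718, minus strand) at 19.5 ± 3.61. Psat1 (chr19:15904678-15947337, minus strand) followed at 119 ± 10.03 and Mthfd1 (chr12:76255298-76319803, plus strand) at 69.6 ± 12.2 CPM per kilobase. Mthfd2 (chr6:83305691-83325908, minus strand), Phgdh (chr3:98313170-98339990, minus strand) and Mthfd1l (chr10:3973118-4167081, plus strand) lay between 43.1 and 54.7 CPM per kilobase. Psph (chr5:129765558-129787449, minus strand) stood at 26.8 ± 4.63, and below Shmt1 lay only Aldh1l2 (chr10:83487450-83534140, minus strand) at 11.1 ± 1.501 and Mthfd2l (chr5:90931117-91021368, plus strand) at 9.93 ± 0.645 CPM per kilobase. The 2 lowest did not differ beyond their spread. In PERK -/- DMSO libraries Psat1, at 219 ± 9.92 CPM per kilobase, lay beside Shmt2 at 208 ± 6.22, within their spread.

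Before any treatment, 6 of the 10 members differed between the genotypes, 4 higher and 2 lower in PERK -/- cells, a share near that of all genes tested, of which 49.5% were called (adjusted p below 0.05 by the edgeR quasi-likelihood test, Benjamini-Hochberg over 16065 genes). Psat1, the aminotransferase of serine synthesis, stood at 383, 343 and 325 CPM in WT DMSO and at 641, 673 and 615 CPM in PERK -/- DMSO, with no overlap. That was a log2 difference of 0.88 ± 0.11 (SE) with an edgeR adjusted p of 8.88e-08. Shmt1 stood at 56.5, 44.9 and 65.5 CPM in WT DMSO and at 81.9, 86.4 and 93.9 CPM in PERK -/- DMSO (log2 difference 0.65, edgeR adjusted p = 8.53e-05). Mthfd2, the mitochondrial dehydrogenase and cyclohydrolase, was higher as well, by 0.55 on the log2 scale. Aldh1l2, which oxidises formyl-tetrahydrofolate to CO2 in mitochondria, lay the other way, at 70.5, 74.8 and 57.3 CPM in WT DMSO and at 39.6, 44.6 and 41.5 CPM in PERK -/- DMSO (log2 difference -0.69, edgeR adjusted p = 0.000311). Mthfd2l, the second mitochondrial dehydrogenase of this step, was lower by a log2 difference of -0.61. Phgdh, the first enzyme of serine synthesis, passed with a log2 difference of 0.28 (edgeR adjusted p = 0.0262), and lost that call without WT DMSO replicate 2 or 3, without PERK -/- DMSO replicate 2 and without the filter. Shmt2 (0.07), Mthfd1l (-0.03), Psph (-0.10) and Mthfd1 (0.17) were not called. Between these groups 7 of the 8 fibroblast markers were also lower in PERK -/- cells (median log2 difference -0.95), and the part of cell makeup in the members' differences was not tested.

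In WT cells thapsigargin raised 7 of the 10 members and lowered 1, where 47.6% of all genes were called. The median log2 change of the 10 members was 0.83, against 0.02 for all genes tested. It was 1.37 for the mitochondrial members and 0.50 for the cytosolic members. Aldh1l2 showed the largest change, from 70.5, 74.8 and 57.3 CPM in DMSO to 419.7, 388 and 561 CPM with thapsigargin. All 3 treated libraries lay far above the controls, and the log2 change was 2.76 ± 0.16 (SE, edgeR adjusted p = 4.7e-15), or 6.75-fold. Mthfd2 stood at 116, 109 and 116 CPM in DMSO and at 341, 305 and 315 CPM with thapsigargin (log2 change 1.49 ± 0.12, edgeR adjusted p = 4.7e-12). Shmt2 stood at 474, 427 and 465 CPM in DMSO and at 1211, 1102 and 1229.6 CPM with thapsigargin (log2 change 1.37 ± 0.10, edgeR adjusted p = 8.64e-13). Both were apart from the controls in every library. Mthfd1l, the formyl-tetrahydrofolate synthetase that releases formate, rose less, from 184 ± 19.6 to 297 ± 30.8 CPM (log2 change 0.69). Mthfd2l fell from 26.7 ± 1.74 to 19.9 ± 1.26 CPM (log2 change -0.43, edgeR adjusted p = 0.00656), so the paired mitochondrial dehydrogenases Mthfd2 and Mthfd2l moved in opposite directions.

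The serine synthesis genes rose to unequal degrees in WT cells under thapsigargin. Psph, the phosphatase that completes serine synthesis, stood at 47.3, 54.0 and 38.1 CPM in DMSO and at 299.7, 253 and 232 CPM with thapsigargin. The groups did not overlap, and the log2 change was 2.49 ± 0.19 (edgeR adjusted p = 3.74e-12), or 5.62-fold. Psat1 rose from 350.4 ± 29.5 to 688 ± 43.3 CPM (log2 change 0.97). Phgdh, at 92.9, 88.7 and 87.9 CPM in DMSO and 138, 119.7 and 123 CPM with thapsigargin, rose by 0.50 ± 0.10 on the log2 scale (edgeR adjusted p = 0.000206). The cytosolic folate enzymes were not called. Shmt1 stood at 55.6 ± 10.3 CPM in DMSO and 50.8 ± 5.71 CPM with thapsigargin (log2 change -0.13). Mthfd1, the trifunctional cytosolic enzyme that takes up formate, stood at 226 ± 39.4 and 197 ± 22.6 CPM (log2 change -0.20, edgeR adjusted p = 0.165). Without WT DMSO replicate 2, Mthfd1 passed at a log2 change of -0.33 (edgeR adjusted p = 0.0252). For these 2 genes the treated and control libraries overlapped.

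**Figure D1:**
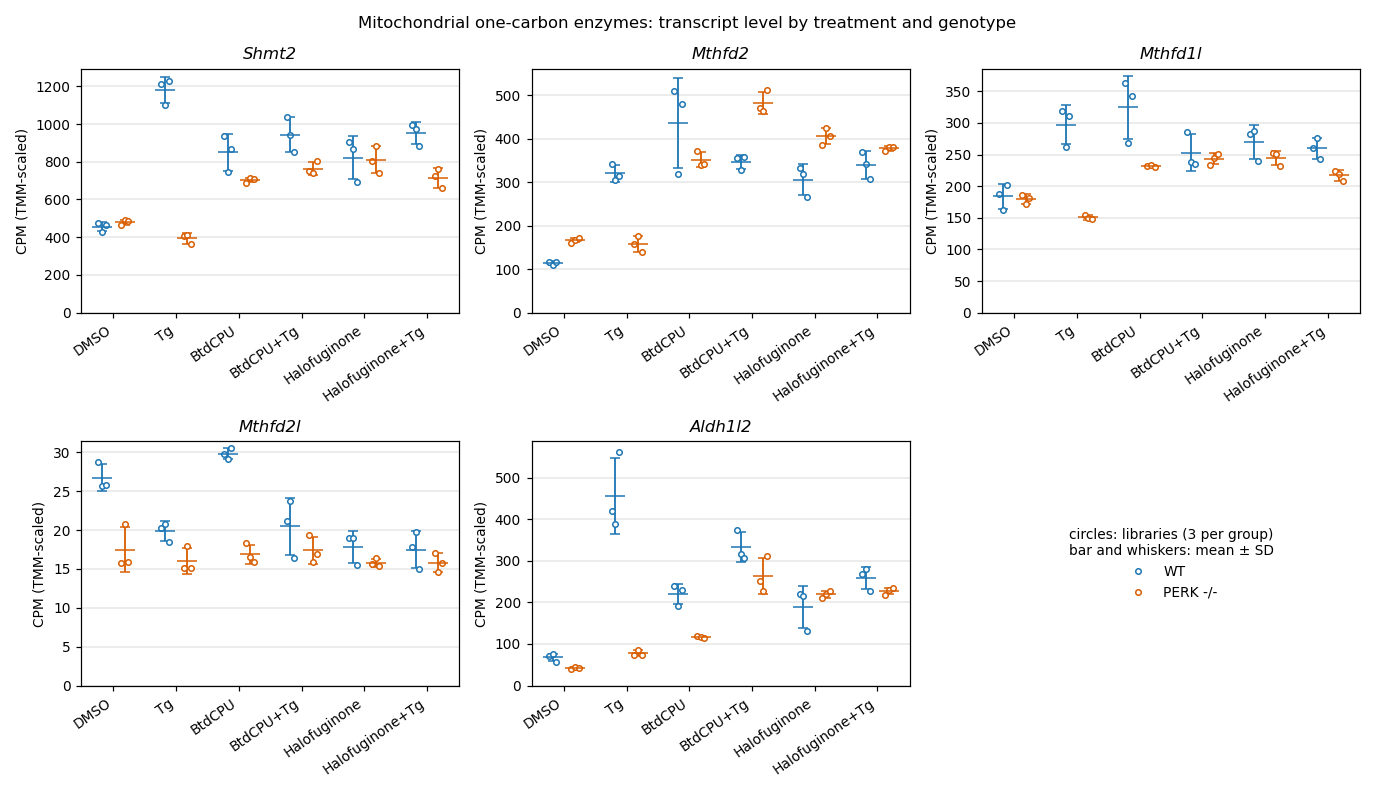
Level of the 5 mitochondrial members in CPM (y axis, from 0) by treatment (x axis) in WT (blue) and PERK -/- (orange) cells; circles are the 3 libraries, bars and whiskers the mean ± SD. Aldh1l2 stands at 388 to 561 CPM in WT cells with thapsigargin and at 72.5 to 85.5 CPM in PERK -/- cells with thapsigargin.

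In PERK -/- cells thapsigargin raised 1 member and lowered 3, where 27.9% of all genes were called. The median log2 change of the 10 members was -0.12, against 0.05 for all genes. Aldh1l2 was the member that rose, from 39.6, 44.6 and 41.5 CPM in DMSO to 73.7, 85.5 and 72.5 CPM with thapsigargin (log2 change 0.88 ± 0.15, edgeR adjusted p = 3.25e-05). Every treated library lay above every control library, yet the treated level was near that of untreated WT cells, 67.5 ± 9.14 CPM. Shmt1 fell the most, from 81.9, 86.4 and 93.9 CPM to 35.3, 37.5 and 32.9 CPM (log2 change -1.31 ± 0.13, edgeR adjusted p = 3.03e-09). Mthfd1 fell from 257, 241 and 262 CPM to 169, 157 and 150.3 CPM (log2 change -0.67 ± 0.12, edgeR adjusted p = 4.14e-05). The libraries of these cytosolic genes did not overlap between the groups either. Shmt2, at 462, 489 and 485 CPM in DMSO and 404, 413 and 362 CPM with thapsigargin, fell by 0.28 on the log2 scale (edgeR adjusted p = 0.0281), a call that was lost without thapsigargin replicate 3 or DMSO replicate 2. Mthfd2 (-0.07), Mthfd1l (-0.25), Mthfd2l (-0.12), Phgdh (-0.13), Psat1 (0.10) and Psph (0.34) were not called. Mthfd1l, with an edgeR adjusted p of 0.059, did pass with either other scaling of libraries and in DESeq2. It also passed with the replicate number as a block and in a fit of the compared groups alone. Its treated libraries lay below its control libraries.

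**Figure D2:**
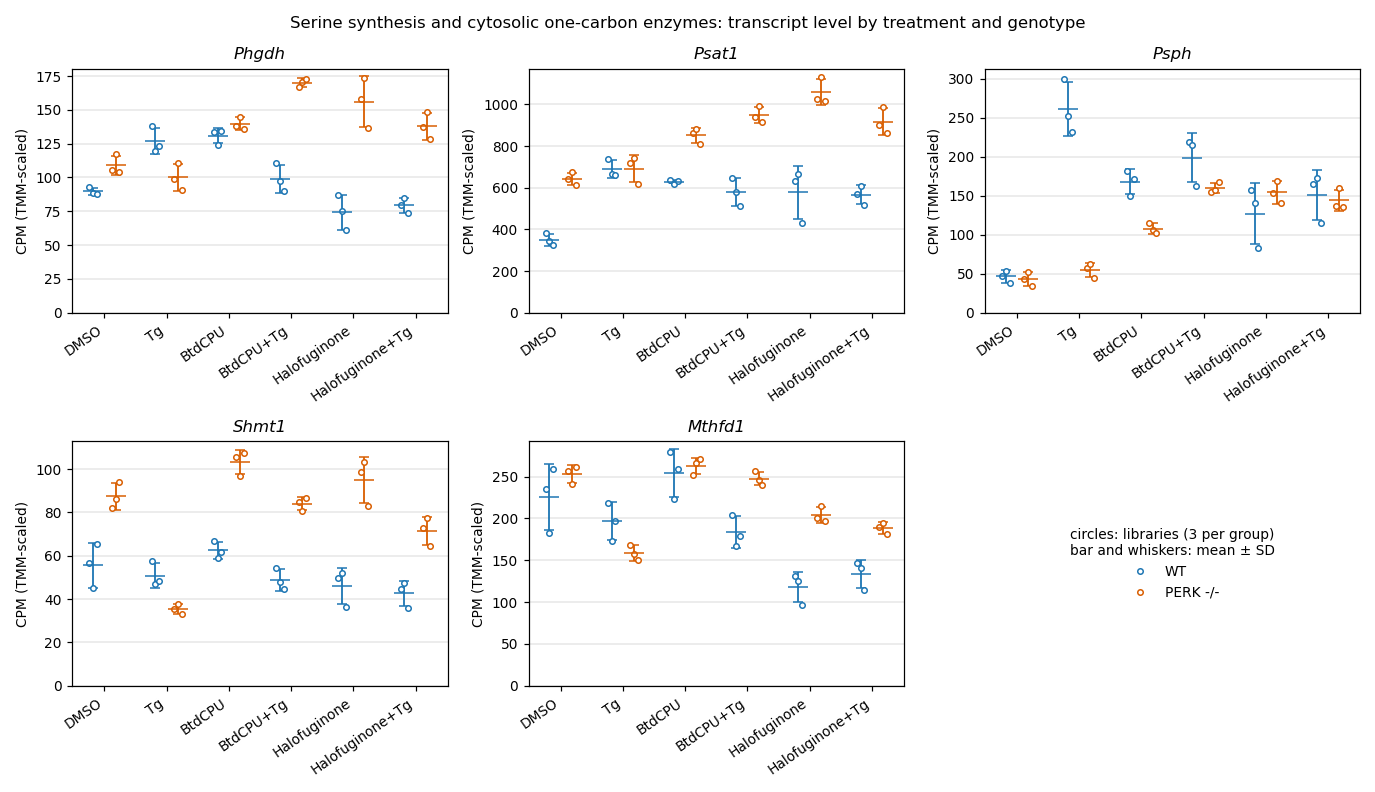
Level of the 5 cytosolic members in CPM (y axis, from 0) by treatment (x axis) in WT (blue) and PERK -/- (orange) cells; circles are the 3 libraries, bars and whiskers the mean ± SD. Shmt1 in PERK -/- cells stands at 32.9 to 37.5 CPM with thapsigargin and at 64.6 to 108 CPM in the other 5 treatments.

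The difference in response itself was tested by an interaction term, the log2 change in PERK -/- cells minus that in WT cells. For thapsigargin against DMSO it was below 0 and called for 9 of the 10 members, where 38.1% of all genes were called in either direction. It was widest for Psph, at -2.15 ± 0.26 (SE, edgeR adjusted p = 8.81e-08), then Aldh1l2 at -1.87, Shmt2 at -1.66 and Mthfd2 at -1.56. Shmt1 followed at -1.18 (edgeR adjusted p = 4.9e-06), where WT cells did not show a called change and PERK -/- cells showed a fall. Mthfd1l stood at -0.94, Psat1 at -0.87, Phgdh at -0.62 and Mthfd1 at -0.47. For Psat1 the genotypes stood at like levels with thapsigargin, 688 ± 43.3 CPM in WT and 692 ± 66.3 CPM in PERK -/- cells. They were apart in DMSO, at 350.4 ± 29.5 and 643 ± 29.1 CPM. The term for Mthfd1 (edgeR adjusted p = 0.0227) was no longer called without WT thapsigargin replicate 1, WT DMSO replicate 2, PERK -/- thapsigargin replicate 3 or PERK -/- DMSO replicate 3. Mthfd2l had a term of 0.31 that was not called (edgeR adjusted p = 0.19).

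BtdCPU alone raised 7 of the 10 members in WT cells, where 22.2% of all genes were called. Mthfd2 responded most, from 116, 109 and 116 CPM in DMSO to 510.2, 318 and 481 CPM, with replicate 2 (the library farthest from its group over all genes) the lowest of the 3. The log2 change was 1.94 ± 0.12 (edgeR adjusted p = 2.19e-13), or 3.83-fold, against 1.49 for thapsigargin. BtdCPU and thapsigargin were not contrasted with each other, and their Mthfd2 libraries overlapped (305 to 341 CPM with thapsigargin). Psph rose by 1.85, Aldh1l2 by 1.70, Shmt2 by 0.90, Psat1 by 0.84, Mthfd1l by 0.82 and Phgdh by 0.54 on the log2 scale. Shmt1 (0.17), Mthfd1 (0.17) and Mthfd2l (0.16) were not called. BtdCPU also raised 7 members in PERK -/- cells, where only 3.59% of all genes were called. Aldh1l2 went from 39.6, 44.6 and 41.5 CPM to 119.8, 116 and 115 CPM there, with 3 treated libraries close together and above the controls (log2 change 1.48 ± 0.15, edgeR adjusted p = 8.54e-08). Psph rose by 1.31, Mthfd2 by 1.08 and Shmt2 by 0.55. Psat1 (0.40), Mthfd1l (0.37) and Phgdh (0.36) passed with edgeR adjusted p-values of 0.0333, 0.0293 and 0.0485, and leaving out any 1 of the 6 libraries ended all 3 calls.

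The interaction for BtdCPU was called for 1 member, Mthfd2, where 0.199% of all genes were called. Its log2 change was smaller in PERK -/- cells by 0.86 ± 0.16 (interaction term -0.86, edgeR adjusted p = 0.0074). The call was lost on leaving out either of 2 WT BtdCPU libraries. Without replicate 1 the term was -0.73 (edgeR adjusted p = 0.068) and without replicate 3 it was -0.78 (edgeR adjusted p = 0.055). A fit of the compared groups alone ended the call as well, with a term of -0.85 (edgeR adjusted p = 0.256). The terms of the other 9 members ran from -0.54 for Psph to 0.07 for Shmt1 and were not called.

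Halofuginone alone raised 6 members and lowered 3 in WT cells, where 68.2% of all genes were called. The 6 that rose were Aldh1l2 (log2 change 1.48), Psph (1.45), Mthfd2 (1.42), Shmt2 (0.85), Psat1 (0.72) and Mthfd1l (0.55). Mthfd1 fell, from 235, 182 and 259.5 CPM in DMSO to 131, 125 and 97.0 CPM (log2 change -0.94 ± 0.12, edgeR adjusted p = 2.86e-08). Its libraries with halofuginone, alone or with thapsigargin, were the lowest of all 12 groups and apart from the other 10 groups. Mthfd2l fell by 0.59 on the log2 scale. Phgdh, at 86.7, 75.2 and 60.9 CPM against 92.9, 88.7 and 87.9 CPM, fell by 0.28 (edgeR adjusted p = 0.0211). That call was lost without replicate 3, the library farthest from its group (log2 change -0.20, edgeR adjusted p = 0.105), without DMSO replicate 1 (-0.25, edgeR adjusted p = 0.062) and in a fit of the compared groups alone (-0.27, edgeR adjusted p = 0.102). Halofuginone replicate 3 was the lowest of its group for Psat1 (432 CPM, against 634 and 668), Psph (82.3 CPM, against 157 and 141) and Aldh1l2 (131 CPM, against 220.2 and 216), whose calls held without it. Shmt1 (-0.27, edgeR adjusted p = 0.0628) was not called, but passed without halofuginone replicate 1 or 2 or DMSO replicate 2.

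Halofuginone raised 7 members and lowered 1 in PERK -/- cells, where 42.2% of all genes were called. Aldh1l2 rose from 41.9 ± 2.52 to 219.5 ± 8.77 CPM (log2 change 2.39, 5.24-fold), Psph by 1.83, Mthfd2 by 1.28, Shmt2 by 0.76, Psat1 by 0.72, Phgdh by 0.52 and Mthfd1l by 0.45. Mthfd1 fell by 0.31 (edgeR adjusted p = 0.0333), a call lost without halofuginone replicate 1 or 3 or DMSO replicate 1 or 3. The interaction was called for 3 members, a share near the 35% of all genes that were called. It was 0.91 for Aldh1l2 (edgeR adjusted p = 0.00122), 0.79 for Phgdh (edgeR adjusted p = 0.000113) and 0.63 for Mthfd1 (edgeR adjusted p = 0.00351). Phgdh fell in WT cells and rose in PERK -/- cells, which stood at 158, 174 and 136 CPM with halofuginone against 106, 117 and 104 CPM with DMSO. Psat1 held almost the same log2 change, 0.72, in both genotypes.

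Added to thapsigargin in WT cells, BtdCPU changed 0 members by edgeR, where 2.32% of all genes were called. At an unadjusted p under 0.05, 6 members passed, and DESeq2 called 3. Phgdh, at 138, 119.7 and 123 CPM with thapsigargin alone and 110.3, 97.4 and 89.8 CPM with both, had a log2 change of -0.36 (edgeR adjusted p = 0.0611). In this pair of groups same-numbered libraries deviated together, and with the replicate number as a block 5 members were lower by edgeR. Their log2 changes in that fit were -0.36 for Phgdh, -0.33 for Shmt2, -0.26 for Psat1, -0.40 for Psph and -0.47 for Aldh1l2, with edgeR adjusted p-values of 0.00204, 0.00512, 0.0264, 0.0274 and 0.0309 in that order. Mthfd2, at 347 ± 16.2 CPM with both against 320.3 ± 19.0 CPM, was not called in either fit.

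Halofuginone added to thapsigargin in WT cells lowered 6 members and raised none by edgeR, not far above the 45.3% of all genes that were called. Aldh1l2 fell from 419.7, 388 and 561 CPM to 268, 280.1 and 228 CPM (log2 change -0.82 ± 0.15, edgeR adjusted p = 3.79e-05), with no overlap. Psph fell by 0.79, Phgdh by 0.68 and Mthfd1 by 0.56 on the log2 scale. Shmt2 (-0.31, edgeR adjusted p = 0.00888) and Psat1 (-0.28, edgeR adjusted p = 0.0372) passed more narrowly. Both calls were lost in a fit of the compared groups alone, the Shmt2 call also without halofuginone + thapsigargin replicate 3, and the Psat1 call without replicate 1 or 3 of that group or thapsigargin replicate 1. Mthfd2 (0.08), Mthfd1l (-0.19), Mthfd2l (-0.18) and Shmt1 (-0.25) were not called.

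BtdCPU added to thapsigargin in PERK -/- cells raised 9 of the 10 members, where 35.6% of all genes were called. The median log2 change of the members was 0.86, against -0.04 for all genes. Mthfd2 went from 159, 177 and 139.8 CPM with thapsigargin alone to 470.3, 463 and 511 CPM with both (log2 change 1.60 ± 0.12, edgeR adjusted p = 8.62e-12). That was its highest group mean, although these libraries overlapped those of WT cells with BtdCPU. Aldh1l2 went from 73.7, 85.5 and 72.5 CPM to 252, 227 and 311 CPM (log2 change 1.77 ± 0.15, edgeR adjusted p = 2.46e-10). Psph went from 57.0, 62.9 and 44.7 CPM to 155, 157 and 168 CPM (log2 change 1.54 ± 0.19, edgeR adjusted p = 1.02e-07). None of these 3 genes overlapped between the groups. Shmt2 rose by 0.96, Phgdh by 0.77, Mthfd1l by 0.69 and Psat1 by 0.46. The cytosolic folate genes that thapsigargin had lowered rose as well. Shmt1 stood at 85.0, 80.8 and 86.6 CPM with both drugs against 35.3, 37.5 and 32.9 CPM with thapsigargin alone (log2 change 1.26 ± 0.13, edgeR adjusted p = 6.53e-09). Mthfd1 stood at 257, 246 and 241 CPM against 169, 157 and 150.3 CPM (log2 change 0.64 ± 0.12, edgeR adjusted p = 6.35e-05). Mthfd2l, at 17.4 ± 1.75 against 16.1 ± 1.67 CPM, was the member that was not called.

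Halofuginone added to thapsigargin in PERK -/- cells raised 8 members, where 52.7% of all genes were called, and this comparison shares its thapsigargin libraries with the one before. Log2 changes were 1.55 for Aldh1l2, 1.39 for Psph, 1.25 for Mthfd2, 0.86 for Shmt2, 0.52 for Mthfd1l, 0.46 for Phgdh and 0.41 for Psat1. Shmt1 rose from 35.2 ± 2.27 to 71.5 ± 6.47 CPM (log2 change 1.02, edgeR adjusted p = 6.85e-08). Mthfd1, at 190.0, 195 and 181 CPM with both drugs, had a log2 change of 0.25 that was not called (edgeR adjusted p = 0.074), although its libraries lay above those with thapsigargin alone and DESeq2 called it. Mthfd2l (-0.03) was not called.

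**Figure D3:**
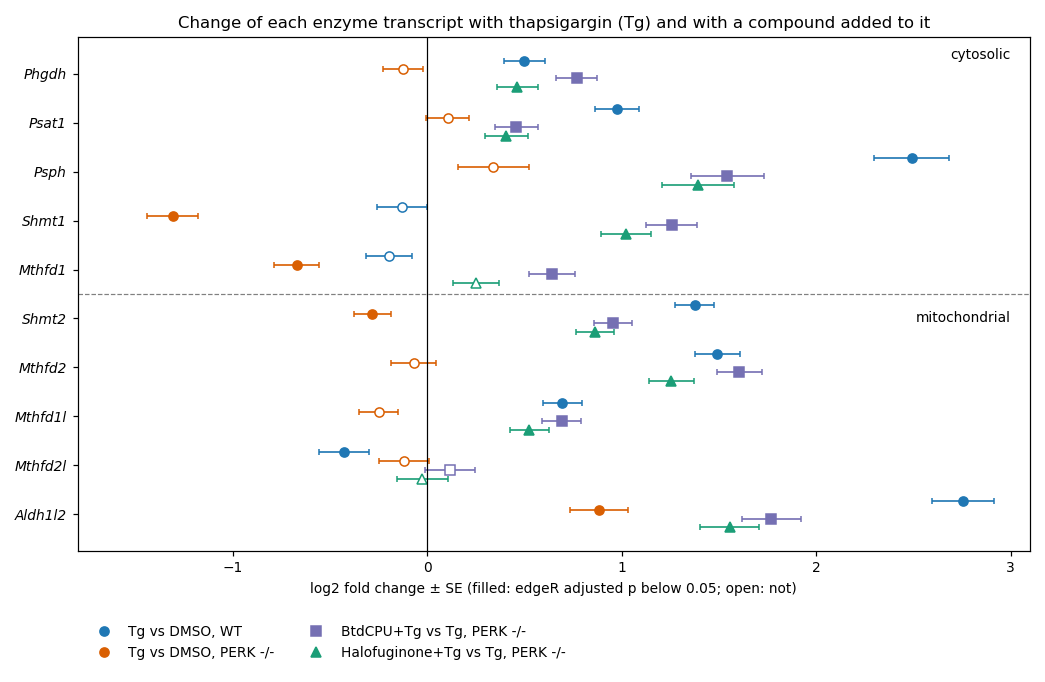
Log2 change ± SE (x axis) of the 10 members (y axis) in 4 comparisons, filled where the edgeR adjusted p is below 0.05; a dashed line parts the cytosolic from the mitochondrial members. Thapsigargin raises 7 members in WT cells and 1 in PERK -/- cells, and in PERK -/- cells adding BtdCPU raises 9 and adding halofuginone raises 8.

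The interaction for a drug added to thapsigargin was above 0 and called for 9 of the 10 members with BtdCPU, where 20.8% of all genes were called, and for 9 with halofuginone, where 32.7% were called. With BtdCPU it was widest for Aldh1l2 (2.23 ± 0.21, edgeR adjusted p = 7.93e-09) and Psph (1.94), then Mthfd2 (1.49), Shmt1 (1.31) and Shmt2 (1.28). With halofuginone it was again widest for Aldh1l2 (2.37 ± 0.21, edgeR adjusted p = 1.1e-09) and Psph (2.18), then Shmt1 (1.28), Shmt2 (1.18) and Mthfd2 (1.17). The lowest called terms were 0.71 for Psat1 with BtdCPU and 0.69 for Psat1 with halofuginone. Mthfd2l was not called, at 0.07 and 0.16. Both terms use the thapsigargin libraries of both genotypes. These libraries also enter the term for thapsigargin against DMSO, with the opposite sign, so the calls of these terms are not independent.

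Set against DMSO, the combined treatments left most members raised in both genotypes. In WT cells BtdCPU + thapsigargin raised 6 and lowered 2, where 52.6% of all genes were called, and halofuginone + thapsigargin raised 6 and lowered 3, where 65.7% were called. The 6 were Shmt2, Mthfd2, Mthfd1l, Aldh1l2, Psat1 and Psph in both cases, and Phgdh was not called in either (0.14 and -0.18). Mthfd2l and Mthfd1 fell in both. With BtdCPU + thapsigargin the Mthfd1 call (-0.30) was lost without BtdCPU + thapsigargin replicate 2 or DMSO replicate 1 or 3, the Mthfd2l call (-0.39) without BtdCPU + thapsigargin replicate 3 or DMSO replicate 1, and both in a fit of the compared groups alone. Shmt1 fell with halofuginone + thapsigargin (-0.39, edgeR adjusted p = 0.00972), a call lost without replicate 3 of that group or DMSO replicate 3. In PERK -/- cells BtdCPU + thapsigargin raised 7 members, where 31.4% of all genes were called, and halofuginone + thapsigargin raised 7 and lowered 1, where 45.1% were called. Aldh1l2 stood at 2.65 and 2.44 on the log2 scale, and Psph at 1.88 and 1.73. With halofuginone + thapsigargin the Mthfd1l call (0.27, edgeR adjusted p = 0.0261) was lost without replicate 1 or 2 of that group, without DMSO replicate 2 or 3 and without the filter, and the Phgdh call (0.34) without replicate 2 of that group (edgeR adjusted p = 0.0707). Shmt1 was not called against DMSO in either (-0.06 and -0.29), although DESeq2 called it lower with halofuginone + thapsigargin, and Mthfd1 fell only with halofuginone + thapsigargin (-0.42, edgeR adjusted p = 0.00346). That no call was made does not show that Shmt1 had returned to its DMSO level.

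Over the 12 groups the ratio of the highest to the lowest group mean was 10.9 for Aldh1l2, 6.02 for Psph and 4.22 for Mthfd2, against 1.89 for Mthfd2l. Aldh1l2, Psph and Shmt2 had their highest level in WT cells with thapsigargin, apart from the next group. Mthfd2, Phgdh and Psat1 had theirs in PERK -/- cells, Mthfd2 and Phgdh with BtdCPU + thapsigargin (482 ± 26.0 and 170.1 ± 3.09 CPM) and Psat1 with halofuginone (1059 ± 63.1 CPM). For Psat1 that group was apart from the next, but for Mthfd2 and Phgdh it overlapped the next. For Mthfd2 the next group was WT cells with BtdCPU (436 ± 103 CPM). Psat1 was lowest in WT DMSO libraries, below every library of the other 11 groups. Mthfd1l was highest in WT cells with BtdCPU (325 ± 49.6 CPM, overlapping WT cells with thapsigargin) and lowest in PERK -/- cells with thapsigargin (151 ± 3.64 CPM). Shmt1 was higher in 4 PERK -/- groups (DMSO, BtdCPU, halofuginone and BtdCPU + thapsigargin) than in any WT library, and in PERK -/- cells with thapsigargin it overlapped WT cells with halofuginone + thapsigargin at the bottom of the order.

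Mitochondrial and cytosolic partners were then compared inside each library, where scaling between libraries does not enter. The log2 ratio of Shmt2 to Shmt1 in CPM, which is not divided by length, was 3.05 ± 0.21 (SD, n = 3) in WT DMSO libraries and 4.54 ± 0.14 in WT thapsigargin libraries. The PERK -/- libraries stood at 2.46 ± 0.08 and 3.48 ± 0.03. The ratio thus moved toward the mitochondrial gene by 1.49 in WT cells, where Shmt2 rose, and by 1.03 in PERK -/- cells, where Shmt1 fell. The ratio of Mthfd2 to Mthfd1 moved from -0.97 ± 0.21 to 0.71 ± 0.09 in WT cells and from -0.60 ± 0.08 to -0.01 ± 0.15 in PERK -/- cells. That of Mthfd1l to Mthfd1, which carry the synthetase of each compartment, moved from -0.28 ± 0.11 to 0.60 ± 0.06 in WT cells and from -0.49 ± 0.03 to -0.07 ± 0.05 in PERK -/- cells. All 3 ratios were higher with thapsigargin in every library of both genotypes.

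Halofuginone shifted the Mthfd2 to Mthfd1 ratio more than thapsigargin did in WT cells, to 1.38 ± 0.06, a difference from DMSO of 2.35. The Mthfd1l to Mthfd1 ratio rose by 1.49. The same ratios moved in PERK -/- cells by 1.59 and 0.75 with halofuginone and by 1.02 and 0.31 with BtdCPU. When BtdCPU was added to thapsigargin in PERK -/- cells, the Shmt2 to Shmt1 ratio moved back by 0.30 (a difference of -0.30), the Mthfd2 to Mthfd1 ratio rose further by 0.97, and the Mthfd1l to Mthfd1 libraries overlapped (difference 0.05). Untreated PERK -/- cells differed from untreated WT cells by -0.59, 0.37 and -0.21 in the 3 ratios. These differences were tested by two-sided exact permutation of 3 against 3 libraries, for which 0.1 is the smallest p and 0.05 cannot be reached. Of 45 such tests (3 ratios in 15 comparisons) 42 gave that smallest p, and the smallest Benjamini-Hochberg value was 0.107. The other 3 were Shmt2 to Shmt1 for halofuginone added to thapsigargin in WT cells (p = 0.7), Mthfd2 to Mthfd1 for BtdCPU added in WT cells (p = 0.2) and Mthfd1l to Mthfd1 for BtdCPU added in PERK -/- cells (p = 0.5, all by the exact permutation test). No ratio was formed for Aldh1l2, because its cytosolic counterpart Aldh1l1 had 0 to 10 counts, and at most 3 in 27 of the 36 libraries.

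**Figure D4:**
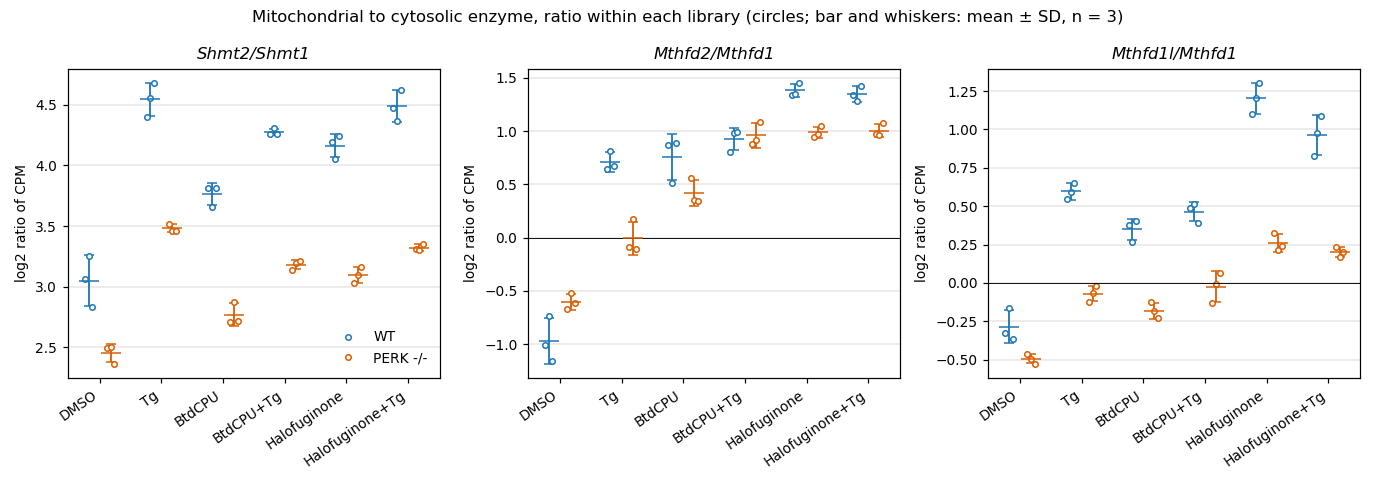
Log2 ratio of CPM in each library (y axis) for Shmt2 to Shmt1, Mthfd2 to Mthfd1 and Mthfd1l to Mthfd1 by treatment (x axis) in WT (blue) and PERK -/- (orange) cells, with the mean ± SD over 3 libraries. The Mthfd2 to Mthfd1 ratio goes from -0.97 in WT DMSO libraries to 1.38 in WT halofuginone libraries.

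Other genes of the pathway were read from 6 lists. With thapsigargin, 47.6% of all genes were called in WT cells and 27.9% in PERK -/- cells, in either direction. Among mitochondrial glycine cleavage genes, 4 of 4 were tested, and in WT cells thapsigargin raised 2 and lowered 1. Gldc, the glycine decarboxylase, rose by 2.78 on the log2 scale, Dld by 0.96, and Gcsh fell by 0.35. Gldc rose by 2.05 and Gcsh fell by 0.48 in PERK -/- cells, so that Gldc, like Aldh1l2 among the members, rose in both genotypes. Of 10 tested genes of serine and glycine transport and use, 3 rose and 2 fell in WT cells, led by the glycine transporter Slc6a9 (3.16) and the neutral amino acid transporter Slc1a4 (1.53), then Srr (0.70) and Sfxn2 (-0.68). Of the same genes 2 rose and 2 fell in PERK -/- cells, Slc6a9 (1.77), Sfxn3 (0.62), Slc1a5 (-0.87) and Sfxn1 (-0.41). Sfxn1 is a mitochondrial serine carrier. The interaction for thapsigargin was -1.45 for Slc1a4 and -1.38 for Slc6a9.

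Folate transport and retention genes (6 of 7 tested) showed 1 rise and 2 falls in WT cells with thapsigargin, Slc19a1 (0.56), Ggh (-0.69) and Slc46a1 (-0.63). In PERK -/- cells Slc46a1 rose (0.59), while the folate carriers Slc19a1 (-1.07) and Slc25a32 (-0.88, the mitochondrial carrier) and the polyglutamate synthase Fpgs (-0.43) fell. With BtdCPU added in PERK -/- cells Slc19a1 (1.23), Slc25a32 (0.70) and Fpgs (0.64) rose, and with halofuginone added Slc25a32 (1.26) and Slc19a1 (1.14) rose while Slc46a1 (-2.38) and Folr1 (-2.15) fell. Among other folate enzymes, Tyms (-0.71), the thymidylate synthase, and Mthfs (-0.62) fell in WT cells with thapsigargin. Mthfs rose (0.71) in PERK -/- cells. Of 5 tested methionine cycle genes Mtrr (0.49) rose and Mat2a (-0.76) and Ahcy (-0.49) fell in WT cells, and in PERK -/- cells Mat2b (0.91) rose while Mat2a (-1.36) and Mtrr (-0.61) fell.

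The 6 genes of purine synthesis, the pathway that draws on formyl-tetrahydrofolate in the cytosol, were all tested. In WT cells thapsigargin raised 0 of them and lowered 1 by edgeR, Paics (-0.73), where 47.6% of all genes were called. In PERK -/- cells 5 of the 6 fell, Ppat (-0.91), Atic (-0.85), Gart (-0.74), Pfas (-0.72) and Adsl (-0.55), with a list median of -0.73 against 0.05 for all genes. The interaction was called below 0 for 5 (Atic and Ppat -0.81, Adsl -0.66, Gart -0.57, Pfas -0.45) and above 0 for Paics (0.76). Of all genes, 27.9% were called with thapsigargin in PERK -/- cells and 38.1% for this interaction. When BtdCPU was added in PERK -/- cells 5 rose, led by Atic (0.82), Gart (0.55), Adsl (0.55) and Pfas (0.52), where 35.6% of all genes were called. With halofuginone added 4 rose (Atic 0.99, Adsl 0.94 and Ppat 0.64 the largest) and Paics fell (-0.61), where 52.7% were called. These cytosolic genes fell in the group in which Shmt1 and Mthfd1 fell.

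Genes of DNA replication were followed beside the cytosolic folate enzymes. Of 18 S phase genes, thapsigargin lowered 15 in WT cells (median log2 change -0.81) and 4 in PERK -/- cells (median -0.10). Of all genes, 47.6% were called in WT cells and 27.9% in PERK -/- cells, in either direction. The summed level of these genes was 4157 ± 518 CPM in WT DMSO libraries and 2640 ± 245 CPM with thapsigargin, and 4417 ± 47.5 and 4062 ± 98.4 CPM in PERK -/- cells. Shmt1 and Mthfd1 fell in PERK -/- cells, where 4 of the 18 fell, and were not called in WT cells, where 15 fell. With BtdCPU added to thapsigargin in PERK -/- cells 9 S phase genes fell and 1 rose (median -0.32), while Shmt1 and Mthfd1 rose. Of all genes, 35.6% were called there. Halofuginone lowered 14 and raised 4 of the S phase genes in WT cells (median -0.67), where Mthfd1 fell too and 68.2% of all genes were called. The part of the cell cycle in the members' changes was not tested.

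Markers of cell type moved with some of the same treatments. Of all genes, 47.6% were called with thapsigargin and 68.2% with halofuginone in WT cells, and 27.9% with thapsigargin in PERK -/- cells. In WT cells thapsigargin lowered 7 of the 8 fibroblast markers (median -0.74), whose sum ran from 21824 to 30808 CPM in DMSO and from 15434 to 19987 CPM with thapsigargin, and in PERK -/- cells it raised 4 and lowered 1, with sums of 13946 to 17491 and 17539 to 22685 CPM. Of 4 epithelial markers 3 were tested, and all 3 were higher in WT cells with thapsigargin and with halofuginone. Their sum ran from 0.114 to 0.337 CPM in WT DMSO, 0.416 to 4.24 CPM with thapsigargin and 16.9 to 23.5 CPM with halofuginone, and from 1.38 to 1.96 CPM in PERK -/- libraries with DMSO or thapsigargin. Epcam stayed at or under 0.169 CPM in all 36 libraries. Of 4 neural markers 2 were tested. Their summed level, mostly Tubb3 in WT DMSO and WT thapsigargin libraries, ran from 62.7 to 72.2 CPM in WT DMSO, 211 to 236 CPM with thapsigargin (1 of the 2 higher) and 26.6 to 42.6 CPM with halofuginone (1 higher and 1 lower). In PERK -/- cells both were higher with thapsigargin, with sums of 73.8 to 82.6 CPM in DMSO and 110.1 to 132 CPM. Endothelial markers summed to 0.248 to 0.899 CPM in WT DMSO and 3.22 to 5.33 CPM with halofuginone (2 of 4 higher). With thapsigargin they summed to 0.557 to 0.891 CPM (1 of 4 higher). The 1 leukocyte marker tested was lower in WT cells with either drug, and the sums were 2.20 to 2.41 CPM in DMSO, 0.694 to 1.40 CPM with thapsigargin and 0.681 to 1.48 CPM with halofuginone. The part of these markers in the members' changes was not tested.

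Reads of overlapping genes could enter 5 members, since the use of strand in counting is not given in the sources used here. In GENCODE M21 Shmt2 shares exon bases with Ndufa4l2 and Mthfd1 with Gm47525, and neither partner passed the filter on low counts. The other 3 have partners that were tested. Psph shares 26.1% of its exon bases with Cct6a, Aldh1l2 17.3% with D10Wsu102e and Shmt1 6.44% with Smcr8, each on the other strand. Cct6a, a chaperonin subunit, stood at 757 CPM in WT DMSO and 872 CPM in WT thapsigargin libraries (log2 change 0.20, not called), while Psph rose. Cct6a fell with thapsigargin in PERK -/- cells (-0.62) and rose when BtdCPU (0.49) or halofuginone (0.86) was added, and Psph moved the same way in the latter 2 comparisons. D10Wsu102e was not called with thapsigargin in WT cells (0.02) and fell in PERK -/- cells (-1.20), where Aldh1l2 rose. Its group means were 17.8 to 48.1 CPM, and it rose with halofuginone added to thapsigargin in PERK -/- cells (1.08). Smcr8 was not called with thapsigargin in PERK -/- cells (0.07) or when BtdCPU was added (0.19), where Shmt1 fell and rose.

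The genes most like each member were named by the Pearson correlation of mean log2 CPM over the 12 groups, among 10556 genes whose log2 CPM averaged 2 or more. The 12 groups share treatments and genotypes, so these values describe the pattern and carry no test. Psph was closest to Gars (r = 0.988), the glycyl-tRNA synthetase, and then to Ctage5 (0.980). Aldh1l2 was closest to Fibin (0.980), Shmt2 to Lars (0.964, the leucyl-tRNA synthetase), Mthfd2 to Slc38a7 (0.963) and Mthfd1l to Comtd1 (0.975). Psat1 was closest to Ldlrad3 (0.977), Phgdh to Ruvbl2 (0.948), Mthfd2l to Sh3kbp1 (0.968), Shmt1 to Inip (0.954) and Mthfd1 to Impdh2 (0.973, the rate-limiting enzyme of guanine nucleotide synthesis). Among the members, Psph ran with Aldh1l2 (0.980), Shmt2 (0.948) and Mthfd2 (0.869), and Shmt2 with Mthfd1l (0.92). Shmt1 and Mthfd1 stood at 0.744, and Phgdh lay about as near to Psat1 (0.785), Shmt1 (0.740) and Mthfd1 (0.722). Shmt1 and Shmt2 (0.0026) and Mthfd1 and Mthfd2 (0.035) were nearly unrelated over the groups, and Psat1 and Psph, which catalyse successive steps, stood at 0.400.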

How the data were processed

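Per the labels, RNA of 36 mouse embryonic fibroblast samples was sequenced strand-specifically on a DNBSEQ instrument, with both ribosomal depletion and mRNA selection mentioned. The authors deposited a table of estimated count values per gene, an expected count for each of 36930 entries, unscaled, with 0.025 in place of a count of 0 (50.6% of values) and 2.69% of the other values not whole. Per the submitters' processing notes, GRCm39 and DESeq were used. The aligner, counter, annotation and use of strand are not given in the sources used here. For overlaps and lengths GENCODE M21 (GRCm38) was matched by symbol, and no coordinates were converted.

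From these estimated counts, 27 entries with no gene symbol (0.206% to 0.278% of counts) were left out, 39 symbols on several entries (86) were summed, and values were rounded. Each member had 1 entry. The chi-square between libraries of a group, divided by its degrees of freedom, was 9.66 or more, so no library repeated another of its group. Libraries of different groups were not compared in this way. The test was that of edgeR 4.0.16 under R 4.3.3 (filterByExpr by group with a minimum count of 10, TMM, robust quasi-likelihood fit of 12 group means, 24 residual degrees of freedom, common dispersion 0.0199) in 20 contrasts (15 of 2 groups and 5 interactions). Benjamini-Hochberg adjustment covered the 16065 genes of each contrast, with calls below 0.05. All 36 libraries entered each fit. CPM used TMM-scaled library sizes, and ratios of CPM a prior count of 0.5. The fit was also run on simulated data with the same dispersion for every gene and no deviant libraries. That run cannot show how such libraries affect the calls.

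The members and lists were chosen with earlier results of these data known. All 10 members are named, and of each further list at most the 4 called genes with the largest log2 change in the comparison described. Part of the list of other folate enzymes is not reported here. A replicate number was taken to pair libraries where every same-numbered pair deviated together (correlation over 0.1). No label says what the number marks, and this held only for BtdCPU + thapsigargin against thapsigargin (0.116, 0.228 and 0.234) and halofuginone + thapsigargin against thapsigargin (0.115, 0.156 and 0.218), both in WT cells. Alternatives were RLE or library size scaling, no filter, the replicate block, a fit of the compared groups alone, DESeq2 1.42.0, a prior count of 2 for ratios, another promoter motif, and leaving out each library.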

Additional observations from a re-analysis of the deposited data

Results flagged for a closer look

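The log2 response of PERK -/- cells differed from that of WT cells in 31 of the 50 combinations of member and treatment tested by an interaction term (edgeR adjusted p below 0.05, the PERK -/- change minus the WT change). The thapsigargin libraries enter the term for thapsigargin and, with the opposite sign, both terms for a drug added to it. The calls of these terms are therefore not independent. Of all genes, 38.1% were called for thapsigargin, 0.199% for BtdCPU, 35% for halofuginone, 20.8% for BtdCPU added to thapsigargin and 32.7% for halofuginone added, so the 3 halofuginone calls are near the share of all genes. For thapsigargin against DMSO the terms were -2.15 for Psph, -1.87 for Aldh1l2, -1.66 for Shmt2, -1.56 for Mthfd2, -1.18 for Shmt1, -0.94 for Mthfd1l, -0.87 for Psat1, -0.62 for Phgdh and -0.47 for Mthfd1. Psat1 differed between the genotypes in DMSO, and with thapsigargin it stood at 688 CPM in WT and 692 CPM in PERK -/- cells. For BtdCPU against DMSO the term was -0.86 for Mthfd2. For halofuginone against DMSO the terms were 0.91 for Aldh1l2, 0.79 for Phgdh and 0.63 for Mthfd1.

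For BtdCPU added to thapsigargin the terms were 2.23 for Aldh1l2, 1.94 for Psph, 1.49 for Mthfd2, 1.31 for Shmt1, 1.28 for Shmt2, 1.12 for Phgdh, 0.92 for Mthfd1l, 0.74 for Mthfd1 and 0.71 for Psat1. For halofuginone added to thapsigargin they were 2.37 for Aldh1l2, 2.18 for Psph, 1.28 for Shmt1, 1.18 for Shmt2, 1.17 for Mthfd2, 1.14 for Phgdh, 0.81 for Mthfd1, 0.72 for Mthfd1l and 0.69 for Psat1. Mthfd2l had no called term in any of the 5. Its halofuginone term of 0.44 (edgeR adjusted p = 0.059) did pass by library size alone, with the replicate block and without some libraries. The Shmt1 term for halofuginone, 0.39 (edgeR adjusted p = 0.094), passed in such settings and without the filter.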

How the results depend on the processing

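Of the recomputed log2 changes of the members 2582 kept their side of the threshold, 57 came to pass it, 61 no longer did and none of those called changed direction. Changes near 0 that were not called could change direction. For Psat1 the interaction for halofuginone was -0.002, and 0.009 with the replicate block. Between the untreated genotypes the blocked fit takes replicate 1 of each genotype as reference. Its log2 differences there, included in the counts above, are thus not differences of group means. The number of members called moved by over 1.5 times in 4 comparisons. For BtdCPU added to thapsigargin in WT cells (0 called) it was 1 with RLE size factors, 2 without the filter, 5 with the replicate block, 3 in DESeq2 and 0 to 2 on leaving out a library. For BtdCPU in PERK -/- cells (7 called) it was 4 on leaving out any library. For the BtdCPU interaction (1 called) it was 3 with the replicate block, 0 in a fit of the compared groups alone and 0 to 2 on leaving out a library. For the halofuginone interaction (3 called) it was 5 by library size alone, without the filter and with the replicate block, and 3 to 5 on leaving out a library. The cause was not tested. In the 2 comparisons within WT cells that met the rule for pairing, the replicate block changed no member call beyond those 5. Elsewhere the rule was not met, although some same-numbered libraries deviated together. For thapsigargin against DMSO in WT cells the correlations were 0.014, 0.136 and 0.187. The block changed no member call in that comparison but changed some in others that did not meet the rule. With thapsigargin in PERK -/- cells it brought Psph (0.34) and Mthfd1l (-0.25) to edgeR adjusted p-values of 0.0332 and 0.0183. The promoter count was 0 with TGATGCAA and 6 with CCAAT.

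Counts over all genes moved as well. BtdCPU in WT cells called 3571 genes, 5534 with the replicate block, 835 in the fit of the compared groups and 1780 to 5061 on leaving out a library. BtdCPU added to thapsigargin in WT cells called 372, against 813 without the filter, 2079 with the block, 23 in the compared groups, 866 in DESeq2 and 41 to 338 on leaving out a library. BtdCPU in PERK -/- cells called 577, against 1577, 1265 and 877 with the block, the compared groups and DESeq2, and 326 to 405 on leaving out a library. The BtdCPU interaction called 32, against 314 without the filter, 587 with the block, 2 in the compared groups, 161 in DESeq2 and 14 to 845 on leaving out a library. By library size alone the share of higher calls went from 58.1% to 45.1% for BtdCPU in WT cells, from 55.9% to 80.7% for BtdCPU added to thapsigargin in WT cells and from 51.6% to 41.4% for its interaction. The median of all genes went from 0.004 to -0.11 for halofuginone in WT cells and from 0.001 to 0.10 for its interaction. For the interaction of BtdCPU added to thapsigargin it went from -0.05 to -0.13. That scaling also moved 15 group levels of the members by over 1 SD, while 225 levels moved less over the alternatives. Member counts ran from 501 (Mthfd2l) to 44307 (Shmt2) in a library, so library spread more than counting sets the errors.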
